A study of Mus musculus with 2 samples.

Results

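The genes described here are 10 genes of the miRNA machinery, out of 34745 genes in the deposited tables: *Drosha*, *Dgcr8*, *Xpo5*, *Dicer1*, *Tarbp2*, *Ago1*, *Ago2*, *Ago3*, *Ago4* and *Tnrc6a*. They were taken from the tables by gene symbol, with no limit on their values, and all 10 had reads in both libraries. RNA-seq was performed on LSKs, the lineage-negative bone marrow cells positive for Sca1 and c-Kit that hold the hematopoietic stem and early progenitor cells. The cells came from Scl/tTA-BA mice on the C57BL/6 background, which carry a transactivator (tTA) driven by *Scl* regulatory elements and the human fusion oncogene BCR/ABL (BA) under its control. Doxycycline in the drinking water keeps BA off. The week-0 library is the control, from mice still on doxycycline, and the week-3 library is from mice 3 weeks after its withdrawal. Both groups carry both transgenes, and a reporter strain with the same tTA was positive in a part of the LSKs only, so that the week-3 library may mix cells with and without BA. Each group is 1 library for which LSKs of 3 mice were mixed. No replicates exist, the spread between mice is unknown, no p-value is given, and every difference below is between these 2 libraries. The mouse age is not given in the sources used here.

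The study asked how BA changes miRNAs and mRNAs of LSKs, and the 10 genes encode the proteins that make and use miRNAs. A primary miRNA transcript is cut in the nucleus by the Microprocessor, made of the RNase III enzyme Drosha and its RNA-binding partner Dgcr8. The resulting hairpin is exported by Xpo5 (exportin 5), cut to a short duplex by Dicer1 with its cofactor Tarbp2, and one strand is loaded into an Argonaute protein. Argonautes bind GW182 proteins such as Tnrc6a, which recruit the enzymes that shorten and decay target mRNAs. Of the Argonautes, Ago2 is the one known as a slicer of fully paired targets, and it is needed in blood formation.

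The machinery did not move as a block. *Ago2* and *Ago4* were lower at week-3 by more than 2 times, and *Xpo5* was lower by 1.90 times. *Dgcr8*, *Dicer1* and *Tnrc6a* were higher by 1.57 to 1.92 times, and *Tarbp2* by 1.46 times. *Drosha* was lower by 1.43 times, while the differences of *Ago1* and *Ago3* lay within counting error when libraries were scaled by total reads, and outside it with TMM or median-of-ratios scaling. Levels are given as reads and as FPKM (fragments per kilobase of exon per 1000000 reads on genes). Intervals are exact 95% Clopper-Pearson intervals for the ratio and exact Poisson intervals for a level, and neither covers more than counting error. They leave out the spread between mice and any spread added when cDNA was amplified before sequencing.

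**Figure D1:**
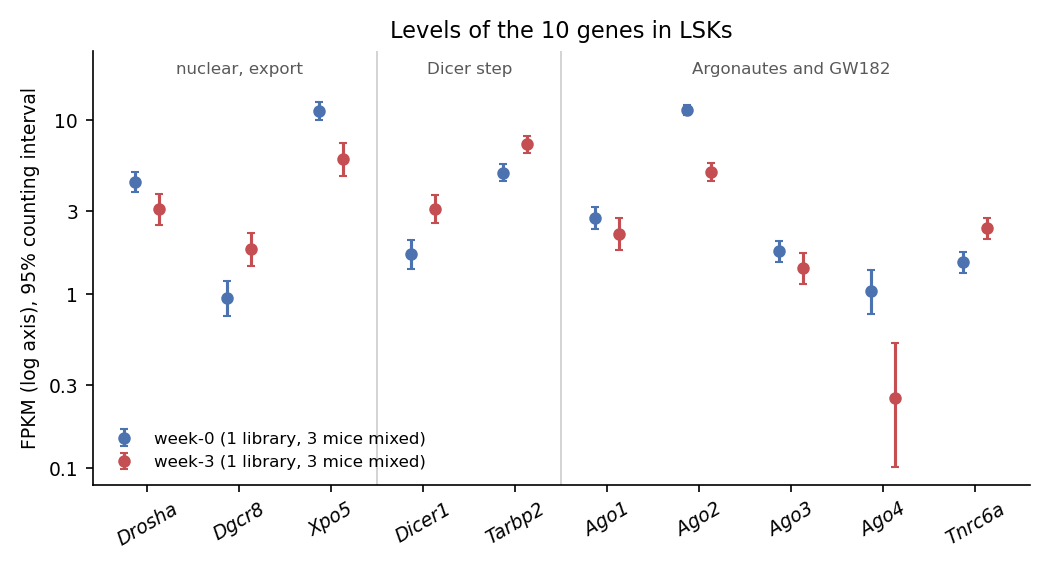
FPKM of the 10 genes (log axis) in the week-0 and week-3 libraries, ordered by step of the pathway. Points are the deposited values and bars their 95% counting intervals. *Ago2* goes from 11.4 to 5.05 and *Ago4* from 1.04 to 0.253, while *Dgcr8*, *Dicer1*, *Tarbp2* and *Tnrc6a* are higher at week-3.

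A gene was called at a ratio of week-3 over week-0 of at least 2 or at most 0.5. Of the 10 genes, 0 reached 2, where 14.2% of the 15377 genes with reads in both libraries did, and 2 were at 0.5 or below (*Ago2*, *Ago4*), where 16.2% were. With limits of 1.5 and 1/1.5, 3 genes were higher (*Dgcr8*, *Dicer1*, *Tnrc6a*) against 28.1% of all genes, and 3 were lower (*Xpo5*, *Ago2*, *Ago4*) against 25.6%. The share of the 10 genes past each limit was therefore near the background in these libraries. The 95% counting interval lay above 1 for 4 genes (*Dgcr8*, *Dicer1*, *Tarbp2*, *Tnrc6a*) and below 1 for 4 (*Drosha*, *Xpo5*, *Ago2*, *Ago4*), against 28.4% and 22.5% of all genes. Since few reads widen an interval, the same shares were taken over the 10172 genes with at least the 54 reads of *Ago4*, the member with the fewest. There, 8.77% reached 2, 12.3% were at 0.5 or below, 37.2% had an interval above 1 and 29.0% an interval below 1. The median log2 change of the 10 genes was -0.32, against 0.09 over all 15377 genes. In bulk RNA, fewer cells of a type and less RNA per cell cannot be told apart.

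**Figure D2:**
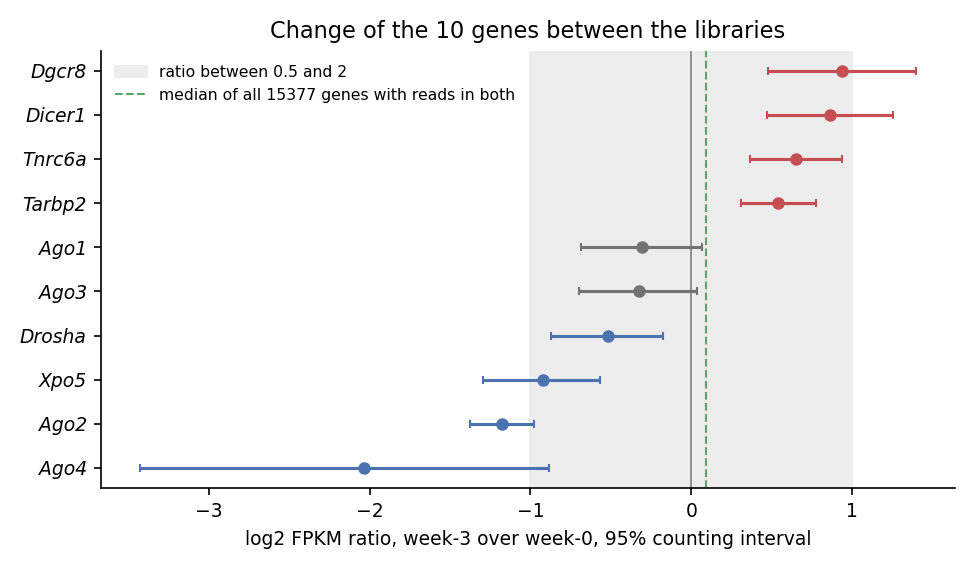
Log2 of the FPKM ratio of week-3 over week-0 for the 10 genes, with 95% counting intervals. Red marks an interval above a ratio of 1, blue one below, grey one that holds 1, with scaling by total reads (the grey intervals, of *Ago1* and *Ago3*, lie below 1 with TMM or median of ratios). The genes spread from -2.04 (*Ago4*) to 0.94 (*Dgcr8*) around the median of all genes, 0.09.

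In the nuclear step, the partners of the Microprocessor went opposite ways. *Drosha* (ENSMUSG00000022191, GRCm38 chr15:12824815-12935290, plus strand), the catalytic subunit, had 232 reads at week-0 against 99 at week-3, and an FPKM of 4.42 (95% interval 3.87 to 5.03) and 3.09 (2.51 to 3.76). Its log2 change was -0.52 (95% interval -0.87 to -0.17). *Dgcr8* (ENSMUSG00000022718, chr16:18253948-18289249, minus strand) had 76 and 89 reads, and its FPKM was 0.946 (0.745 to 1.18) at week-0 and 1.81 (1.45 to 2.23) at week-3. Because the week-3 library was the smaller one, a slightly higher read number corresponds to a log2 change of 0.94 (0.48 to 1.40). The FPKM of *Drosha* was 4.67 times that of *Dgcr8* at week-0 and 1.70 times at week-3, a relative change of 0.364 times (0.243 to 0.546) that does not depend on how the libraries are scaled.

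The *Dgcr8* locus itself carries hairpins. Microprocessor is known to cut hairpins within the *Dgcr8* mRNA, so that *Dgcr8* is at once a part of the enzyme and a substrate. In RefSeq on GRCm38.p6, the hairpin of miR-1306 lies in a coding exon of *Dgcr8* (chr16:18284239-18284317, minus strand). It is printed whole, with the mature arms in capitals, as the hairpin within the coding sequence. Of the miR-3618 hairpin, in an untranslated part of the same transcript, only the mature arms are shown, with the seed (bases 2 to 8) in capitals.
miR-1306 hairpin: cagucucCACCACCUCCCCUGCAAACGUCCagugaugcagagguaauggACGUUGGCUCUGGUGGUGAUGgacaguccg
mmu-miR-1306-5p: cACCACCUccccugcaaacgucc
mmu-miR-1306-3p: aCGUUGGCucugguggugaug
mmu-miR-3618-5p: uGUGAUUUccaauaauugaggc
mmu-miR-3618-3p: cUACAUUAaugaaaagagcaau
These 4 arms have 4 different seeds. Mature miRNAs are too short for this RNA-seq library and were not measured in it.

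*Xpo5* (ENSMUSG00000067150, chr17:46202855-46242299, plus strand), the carrier of hairpins to the cytoplasm, had 267 reads at week-0 against 86 at week-3. Its FPKM was 11.3 (10.01 to 12.8) and 5.97 (4.77 to 7.37), a log2 change of -0.92 (-1.29 to -0.57). With a ratio of 0.527 it stood just short of the limit of 0.5. When the libraries were scaled by TMM, which lowers every log2 change by 0.11, its change was -1.04, and with median-of-ratios scaling it was -1.01, so that *Xpo5* passed the limit under both. An intron of *Xpo5* holds the miR-693 hairpin, whose mature strands are shown as the only miRNA encoded within the other 9 genes in the RefSeq table used.
mmu-miR-693-5p: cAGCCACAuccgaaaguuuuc
mmu-miR-693-3p: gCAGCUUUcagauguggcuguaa

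At the Dicer step both genes were higher at week-3. *Dicer1* (ENSMUSG00000041415, chr12:104687742-104751952, minus strand), the cytoplasmic RNase III enzyme, had 106 and 118 reads, with an FPKM of 1.69 (1.39 to 2.05) at week-0 and 3.08 (2.55 to 3.69) at week-3. Its log2 change was 0.86 (0.47 to 1.26). *Tarbp2* (ENSMUSG00000023051, chr15:102518192-102523676, plus strand), which binds double-stranded RNA and holds Dicer to the loading complex, had 327 and 291 reads. Its FPKM was 4.99 (4.46 to 5.56) and 7.26 (6.45 to 8.15), a log2 change of 0.54 (0.31 to 0.77). The FPKM ratio of *Dicer1* to *Tarbp2* was 0.339 at week-0 and 0.424 at week-3. Its relative change of 1.25 times had an interval, 0.910 to 1.72, that holds 1. *Prkra*, which encodes the alternative Dicer partner PACT, had 256 and 99 reads and a log2 change of -0.66 (-1.01 to -0.32).

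All 4 Argonaute genes had lower values at week-3, and the lower value of *Ago2* weighed most. *Ago2* (ENSMUSG00000036698, chr15:73095844-73184840, minus strand) had the most reads of the 10 genes, 994 at week-0 against 269 at week-3. Its FPKM was 11.4 (10.7 to 12.1) and 5.05 (4.46 to 5.69), a log2 change of -1.18 (-1.38 to -0.98), or 2.26 times lower. Among the genes with reads in a library, it moved from percentile 80.9 at week-0 to percentile 67.3 at week-3.

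*Ago4* (ENSMUSG00000042500, chr4:126489541-126533472, minus strand) had 47 reads at week-0 against 7 at week-3, and an FPKM of 1.04 (0.764 to 1.38) and 0.253 (0.102 to 0.522). Its log2 change, -2.04, was the largest of the 10 in size, and with 7 reads it is known only between -3.43 and -0.88. *Ago1* (ENSMUSG00000041530, chr4:126435012-126468583, minus strand) had 182 and 90 reads and an FPKM of 2.74 (2.36 to 3.17) and 2.22 (1.78 to 2.73), a log2 change of -0.31 (-0.69 to 0.07). For *Ago3* (ENSMUSG00000028842, chr4:126331704-126429556, minus strand) the values were 195 and 95 reads and an FPKM of 1.76 (1.53 to 2.03) and 1.41 (1.14 to 1.72), a log2 change of -0.33 (-0.70 to 0.03). With scaling by total reads the intervals of *Ago1* and *Ago3* hold 0. With TMM they lie below 0, at -0.80 to -0.05 for *Ago1* and -0.81 to -0.08 for *Ago3*, and with median of ratios they end at -0.02 and -0.06, so this call depends on the scaling.

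*Ago3*, *Ago1* and *Ago4* lie in tandem on the minus strand of chromosome 4 within 201.769 kb, with gaps of 5.455 kb and 20.957 kb between neighbours, while *Ago2* lies alone on chromosome 15. Within the tandem, the FPKM ratio of *Ago1* to *Ago3* changed by 1.02 times, with an interval of 0.703 to 1.47 that holds 1. Both gained on *Ago4*, by 3.32 times (1.41 to 9.03) for *Ago1* and 3.27 times (1.39 to 8.88) for *Ago3*. Against *Ago2*, *Ago1* gained 1.83 times (1.35 to 2.45) and *Ago3* 1.80 times (1.34 to 2.4). The relative change of *Ago2* over *Ago4* was 1.82 times, with an interval of 0.804 to 4.82 that holds 1. These 6 pairs, with *Drosha* over *Dgcr8* and *Dicer1* over *Tarbp2*, are all 8 pairs compared.

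The summed FPKM of the 4 Argonautes was 17.0 at week-0 and 8.93 at week-3, 1.90 times lower. Summed reads were 1418 and 461, a log2 change of -0.91 (-1.07 to -0.76) in reads per 1000000. *Ago2* made up 67.3% of the summed FPKM at week-0 and 56.6% at week-3. By reads its share was 70.1% (95% Clopper-Pearson interval 67.6 to 72.5) and 58.4% (53.7 to 62.9), intervals that do not overlap. *Ago1* went from 16.2% to 24.8% of the summed FPKM and *Ago3* from 10.4% to 15.8%, while *Ago4* went from 6.13% to 2.84%. *Ago2* thus had the highest Argonaute mRNA level in both libraries.

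**Figure D3:**
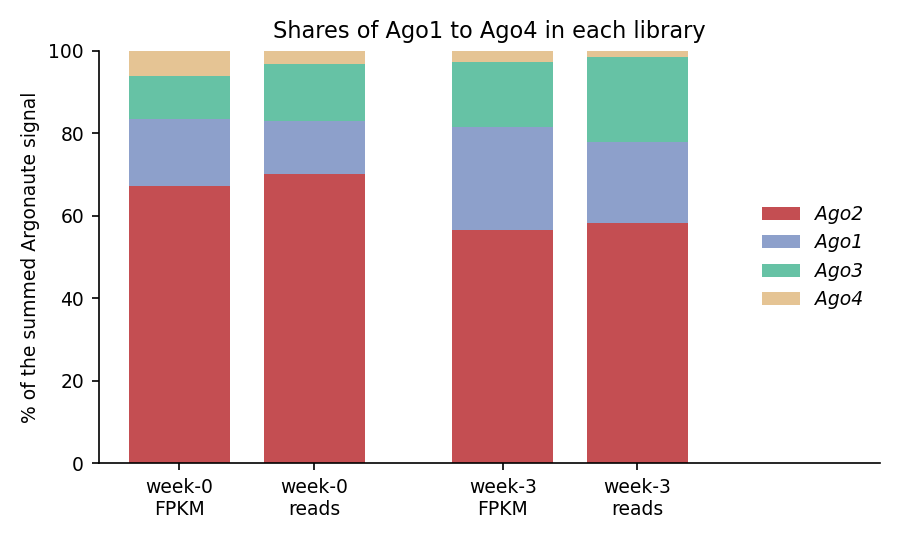
Shares of *Ago1* to *Ago4* in their summed FPKM and in their summed reads, in each library (stacked bars, %). *Ago2* goes from 67.3% to 56.6% of the FPKM and from 70.1% to 58.4% of the reads.

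*Tnrc6a* (ENSMUSG00000052707, chr7:123123885-123195296, plus strand), the GW182 scaffold among the 10 genes, had 210 reads at week-0 against 202 at week-3. Its FPKM was 1.52 (1.32 to 1.74) and 2.39 (2.08 to 2.75), a log2 change of 0.65 (0.37 to 0.94). Its paralogs had log2 changes of 0.01 (-0.20 to 0.20) for *Tnrc6b* and 0.32 (0.05 to 0.60) for *Tnrc6c*. *Tnrc6b* held most of the family's FPKM, 61.4% at week-0 against 53.1% later, and *Tnrc6a* held 19.03% and 25.8%. The summed FPKM of the 3 GW182 genes was 8.0 and 9.29.

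Levels per length were ordered within each library. At week-0, *Ago2* and *Xpo5* came first and did not differ beyond counting error (FPKM ratio 1.01, 0.879 to 1.16). *Tarbp2* and *Drosha* followed, then *Ago1*, then *Ago3*, *Dicer1* and *Tnrc6a*, then *Ago4* and *Dgcr8*. Neighbours within a group, such as *Ago4* and *Dgcr8* (ratio 1.10, 0.748 to 1.60), did not differ beyond counting error, and neighbours across a group border did. At week-3, *Tarbp2*, *Xpo5* and *Ago2* came first, then *Drosha* and *Dicer1*, then *Tnrc6a*, *Ago1*, *Dgcr8* and *Ago3*, with *Ago4* far below (FPKM of *Ago3* over *Ago4* 5.55, 2.59 to 14.2).

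The order depends on the exon length used. Dividing reads by FPKM gives the length behind each deposited value. For 69.1% of 11190 genes with at least 20 reads at week-0 it equalled, within 1%, the summed length of every distinct exon in GENCODE M21, with exons shared in part by several isoforms counted each time, and for 11.3% it equalled the merged exons. A gene whose exons do not overlap can count in both shares. Of the 10 genes, the summed length matched within 1% for *Ago1*, *Ago3*, *Ago4* and *Tnrc6a*, and not for the others. For *Tarbp2* the length behind the FPKM was 10.3 kb, where the merged exons have 4.55 kb, and for *Tnrc6a* 21.7 kb against 12.7 kb. For *Xpo5*, 3.71 kb against 6.86 kb, and *Dicer1*, 9.85 kb against 16.8 kb, the authors' length was the shorter one. Where the summed length was used, deposited FPKM therefore sit lower for genes with many overlapping annotated exons. The change of a gene between libraries is the same on any length.

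On merged exons, *Tarbp2* had 11.3 reads per kb per 1000000 at week-0 and *Ago2* 11.1, and at week-3 the values were 16.5 and 4.93. By value, *Tarbp2* was then first in both libraries, at week-0 by little over *Ago2*. *Drosha* came after *Ago2* in both with 6.15 and 4.29, *Xpo5* had 6.12 and 3.23, and *Dicer1* was last at week-0 with 0.996. For *Xpo5* and *Dicer1* the merged exons are longer than the length behind the FPKM. Their reads may have been counted over fewer bases than they are divided by here. The values and places of *Xpo5* and *Dicer1* in this order may therefore be too low. No intervals were taken for this order, so that close values are not ranked beyond counting error. The share of *Ago2* among Argonautes was 63.4% at week-0 and 51.8% at week-3 on this scale.

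**Figure D4:**
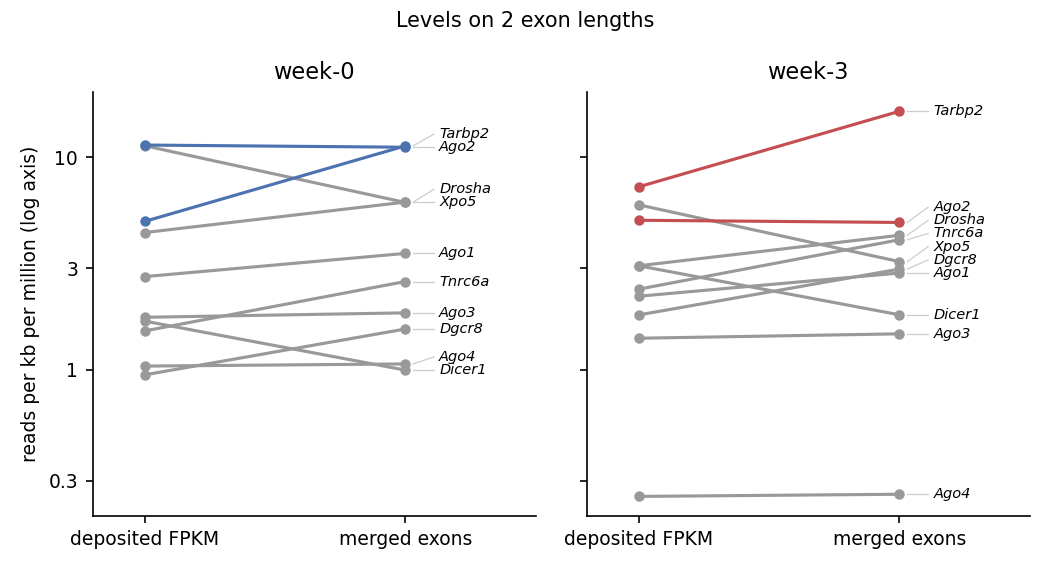
Levels of the 10 genes in reads per kb per 1000000 (log axis), on the length behind the deposited FPKM (left of each panel) and on merged GENCODE M21 exons (right), for each library. Coloured lines are *Ago2* and *Tarbp2*. By value, *Tarbp2* moves to the top at week-0 on merged exons, close to *Ago2*, and *Ago4* is last at week-3 on both.

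Reads of some of the 10 genes could be mixed with those of neighbours, since the strand setting of the counting is not given in the sources used here. By the gene coordinates of the deposited tables, with strands from GENCODE M21, *Dgcr8* overlaps *Trmt2a* on the opposite strand by 825 bases, and *Trmt2a* had 599 and 529 reads, a log2 change of 0.53. *Ago2* overlaps *Chrac1* on the opposite strand by 1711 bases, and *Chrac1* had 487 and 395 reads, a log2 change of 0.41, in the direction opposite to *Ago2*. No other gene of the tables overlaps the remaining 8 genes. The part of these overlaps in the values of *Dgcr8* and *Ago2* was not tested.

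Promoters are shown for the members with the largest changes that have an entry in the RefSeq promoter table (GRCm38.p6), which holds 9 of the 10 genes and not *Ago2*. These are *Dgcr8* and *Dicer1*, higher at week-3, and *Xpo5* and *Ago4*, lower at week-3. Each run is the 250 bases before the annotated start, read 5′ to 3′ on the strand of the gene, and capitals mark any of the motifs searched on both strands: the CCAAT box with the letters CCAAT, the GC box with GGGCGG, the TATA box with TATAAA, the E-box with CACGTG, the ETS core with CCGGAA and the NRF1 core with CGCATGCG.
Dgcr8, chr16:18289169-18289418, minus strand: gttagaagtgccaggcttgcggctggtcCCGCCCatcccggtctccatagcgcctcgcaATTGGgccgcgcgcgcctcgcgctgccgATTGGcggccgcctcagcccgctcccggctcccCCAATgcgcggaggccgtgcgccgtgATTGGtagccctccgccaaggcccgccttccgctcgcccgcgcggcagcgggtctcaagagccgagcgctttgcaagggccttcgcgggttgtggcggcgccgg
Dicer1, chr12:104751953-104752202, minus strand: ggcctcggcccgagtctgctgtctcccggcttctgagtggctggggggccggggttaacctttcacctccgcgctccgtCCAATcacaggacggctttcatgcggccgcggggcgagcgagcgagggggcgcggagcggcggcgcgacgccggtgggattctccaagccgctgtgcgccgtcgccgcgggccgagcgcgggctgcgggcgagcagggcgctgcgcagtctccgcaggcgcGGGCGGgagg
Xpo5, chr17:46202561-46202810, plus strand: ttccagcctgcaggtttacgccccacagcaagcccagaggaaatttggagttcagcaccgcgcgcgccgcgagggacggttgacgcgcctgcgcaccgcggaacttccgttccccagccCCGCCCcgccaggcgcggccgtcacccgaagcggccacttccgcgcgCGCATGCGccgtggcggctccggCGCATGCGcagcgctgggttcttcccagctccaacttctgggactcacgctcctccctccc
Ago4, chr4:126533459-126533708, minus strand: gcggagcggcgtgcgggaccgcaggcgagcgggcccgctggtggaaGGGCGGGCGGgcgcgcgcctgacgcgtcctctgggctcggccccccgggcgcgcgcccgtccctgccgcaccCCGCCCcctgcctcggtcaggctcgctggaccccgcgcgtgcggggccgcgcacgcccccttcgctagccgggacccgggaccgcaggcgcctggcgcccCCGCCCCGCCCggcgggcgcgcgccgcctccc
All 9 windows were richer in CpG than the median of 27025 promoter windows of the same length, with 9 to 46 CpG and a median of 33 against 6. A GC box was found in 7 of the 9 windows and in 32.9% of all windows, and a CCAAT box in 5 of 9 and in 34.5%. The CCAAT box was found in *Dgcr8*, *Dicer1* and *Tarbp2*, higher at week-3, and in *Ago1* and *Drosha*, which had lower values at week-3. It was absent from *Tnrc6a*, higher at week-3, and from *Xpo5*, *Ago3* and *Ago4*, which had lower values. A link between motif and change was not tested. The NRF1 core was found in *Xpo5* only among the 9, and in 1.58% of all windows. An ETS core was present in *Ago3* and *Drosha* (12.2% of all windows), and the TATA box (13%) and E-box (6.05%) in 0 of the 9. A match is a description of these letters and not of binding.

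Around the 10 genes, 63 other genes of the pathway were listed by role, of which 61 had reads in both libraries. Of these, 1 reached 2 and 5 were at 0.5 or below, where 14.2% and 16.2% of all genes did. Below, counts per list are of genes past these limits, to be read against the same shares. Counts of intervals were taken with scaling by total reads only. They are to be read against 28.4% of all genes above 1 and 22.5% below 1. Among genes with at least 54 reads these shares were 37.2% and 29.0%. The 61 genes had a median log2 change of 0.01 against 0.09 over all genes. The other nuclear cofactors and transport factors numbered 9, with 0 at 2 or above and 1 at 0.5 or below. That one was *Adar*, an editor of double-stranded RNA, with 237 reads at week-0, 54 at week-3 and a log2 change of -1.42 (-1.88 to -0.99). *Ddx5*, a helicase of the Microprocessor and the most read gene of this list, had 13482 and 5172 reads and a log2 change of -0.67 (-0.72 to -0.63).

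Among 11 chaperones that help load Argonautes, 1 was at 2 or above and 0 were at 0.5 or below, while 6 counting intervals lay above 1 and 1 below. *Fkbp5*, a co-chaperone of Hsp90 and a well known glucocorticoid target, had 100 reads at week-0 against 280 at week-3, a log2 change of 2.20 (1.86 to 2.54). The most read chaperone gene, *Hspa8*, had a log2 change of -0.37 (-0.41 to -0.34).

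Of 27 effectors of silencing, from the deadenylases to the decay enzymes, 0 were at 2 or above and 3 at 0.5 or below, while 7 counting intervals lay above 1 and 7 below. *Mov10*, an RNA helicase that binds Argonautes, had 295 and 43 reads and a log2 change of -2.07 (-2.57 to -1.60). *Pan2*, the catalytic subunit of a deadenylase recruited by GW182, had 559 and 128 reads and a log2 change of -1.42 (-1.71 to -1.14), while its partner *Pan3* was at -0.17 (-0.26 to -0.08). *Ajuba*, a LIM protein of processing bodies, had 40 and 9 reads and a log2 change of -1.44 (-2.67 to -0.38). *Pabpc1*, the poly(A)-binding protein and the most read of this list, was at 0.26 (0.20 to 0.32).

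Of 13 genes of miRNA tailing and turnover, 11 had reads in both libraries, with 0 at 2 or above and 1 at 0.5 or below, while 5 counting intervals lay above 1 and 2 below. *Zcchc6* (Tut7), a terminal uridylyl transferase of miRNA precursors, had 1050 and 177 reads and a log2 change of -1.86 (-2.10 to -1.63). *Tsn*, the most read of this list, was at 0.25 (0.12 to 0.37). *Lin28a* and *Lin28b*, the blockers of let-7 maturation, had 0 reads in both libraries, where 3 reads would correspond to 0.472 reads per 1000000 at week-0 and 0.772 at week-3. Among the germline Piwi paralogs, *Piwil2* had 26 reads at week-0 against 2 at week-3, a log2 change of -2.99 with an interval of -6.11 to -0.99.

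**Figure D5:**
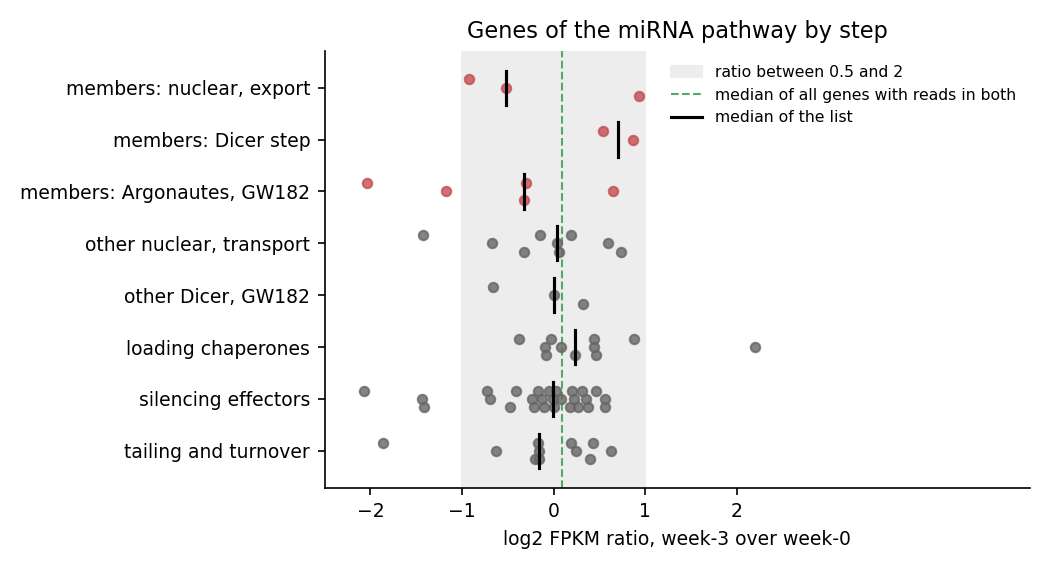
Log2 FPKM ratio of week-3 over week-0 for the 10 genes (red) and for other genes of the pathway with reads in both libraries (grey), by role. Piwi paralogs and miRNA hosts are not drawn. The black bar is the median of each list, and the medians of the 5 grey lists lie between -0.16 and 0.23, around the 0.09 of all genes.

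The 10 genes were chosen as genes of the miRNA machinery, so that shared annotations follow from the choice. In the GO terms of the deposited tables, all 10 carry gene silencing by miRNA, as do 24 further genes, of which 20 had reads in both libraries. Of these 20, 1 was at 2 or above and 5 were at 0.5 or below, against 14.2% and 16.2% of all genes, with a median log2 change of -0.17. All 6 genes of the term RISC-loading complex are members (*Dicer1*, *Tarbp2* and the 4 Argonautes).

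The libraries differed in depth and in markers of cell types. They held 6356164 and 3886695 reads on genes at week-0 and week-3. All 9 LSK markers had reads in both libraries, and their summed FPKM was 323 at week-0 and 129 at week-3, with 3 of 9 at 0.5 or below. Summed FPKM at week-0 and week-3 were 55.8 and 3047 for 7 mast cell markers (2 of them at 0 at week-0), 235 and 1045 for 7 neutrophil markers and 71.99 and 208 for 5 monocyte markers. The higher monocyte sum at week-3 rests on *Ly6c2*, without which the other 4 summed to 31.7 and 22.2. Most of these 2 sums came from *Cd14*, which was lower at week-3 (log2 change -0.79), as was *C1qa*. *Csf1r* (log2 change 0.92, 110 and 127 reads) and *Adgre1* (3 and 5 reads) were higher. Sums were 1272 and 82.4 for 6 erythroid markers and 314 and 55.6 for 5 plasma cell markers. *Xbp1* gave 50.8 and 47.8 of the plasma cell sums, and 4 of the 5 markers were at 0.5 or below. Sums were 36.5 and 26.9 for 6 B-cell markers (1 at 0 at week-3), of which *Cd79b* gave 23.5 and 26.4. Of these 6, 3 were at 0.5 or below. The sums for 5 T-cell markers were 1.33 and 0.491 (2 at 0 at week-3). For 8 immediate-early genes, which respond to handling, the sums were 9279 and 3124, with 7 of 8 at 0.5 or below. The part of these differences in the changes of the 10 genes was not tested.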

How the data were processed

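RNA of sorted LSKs was sequenced as 1 library per time point. Per the study's methods, the authors amplified cDNA (SMARTer Ultra Low Input), read both ends of fragments and mapped reads to GRCm38 (mm10) with TopHat2 2.0.9. The counting tool, annotation release and strand setting are not given in the sources used here. Whole-number read counts per gene, not normalized, and FPKM, which the authors scaled by exon length and by reads on genes, were deposited.

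Ratios of FPKM were taken without a pseudocount for the 15377 genes with reads in both libraries. Exact 95% intervals came from the read counts (scipy 1.17.1). TMM and the exact test with fixed coefficients of variation used edgeR 4.0.16 in R 4.3.3, and median of ratios DESeq2 1.42.0. Strand, exons and overlaps came from GENCODE M21, sequences from RefSeq. Intervals were checked on simulated counts that held counting error only, so that the check does not cover any other spread. Members and lists were chosen with earlier results of these data known. Named beyond the members were *Prkra*, *Tnrc6b*, *Tnrc6c*, the most read gene of each list and genes past 2 or 0.5 with an interval excluding 1. *Pan3*, *Lin28a*, *Lin28b* and the overlapping genes were added after their values were seen.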

Additional observations from a re-analysis of the deposited data

How the results depend on the processing

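With 1 library per group, neither variation between mice nor leaving out a replicate could be examined, and no paired analysis was possible because each group has 1 library. Scaling by TMM or by median of ratios kept the direction of all 10 members and added *Xpo5* to those at 0.5 or below, 3 in place of 2. With log2(FPKM + 1), 1 member (*Ago2*) and 3 other pathway genes were past the lower limit, and the change of *Ago4* was -0.70 in place of -2.04. Limits of 1.5 and 1/1.5 gave 3 members higher and 3 lower, and of the 61 other pathway genes 5 higher and 10 lower. Of all genes, 28.1% were higher and 25.6% lower at these limits. With 1 library per group, edgeR's exact test rests on a spread set by hand, and its calls follow that value, with 2 lower members at a coefficient of variation of 0.1 and, at 0.4, 0 members and 0 other pathway genes in either direction. Counting intervals on one side of 1, chosen after seeing the data, gave 4 members higher and 4 lower, against 28.4% and 22.5% of all genes. With TMM or median of ratios 4 were higher and 6 lower, *Ago1* and *Ago3* being added. Both scalings lower the log2 change of every gene. The share of all genes past a limit was not taken under them, with log2(FPKM + 1) or with edgeR's exact test. The counts of members and other pathway genes under these settings therefore have no background to be read against. The share of *Ago2* was 70.1% of Argonaute reads at week-0, and on merged exons, also chosen after seeing the data, it was 63.4% at week-0 and 51.8% at week-3. Depth limits *Ago4* most, with 7 reads at week-3.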

Other observations

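Transcripts that host miRNAs were read as mRNA or long noncoding RNA, and mature miRNAs were not measured in these libraries. The study's miRNA array was not analysed here. Of 21 host transcripts listed, 1 was at 2 or above and 3 were at 0.5 or below, where 14.2% and 16.2% of all genes were. Their median log2 change was -0.37, against 0.09 over all genes. *Mir155hg*, host of miR-155, had 143 reads at week-0 against 2 at week-3, a log2 change of -5.45 (95% counting interval -8.51 to -3.57). *Srebf2*, a regulator of cholesterol synthesis whose intron holds miR-33, had 1830 and 350 reads and a log2 change of -1.68 (-1.85 to -1.51). *Mir22hg* had 38 and 10 reads and a log2 change of -1.22 (-2.39 to -0.18). *Mir17hg*, host of the miR-17 to miR-92a cluster, had 80 and 98 reads and a log2 change of 1.0 (0.56 to 1.45), which passes the limit of 2 with total reads only, since it was 0.89 with TMM and 0.91 with median of ratios. For the hosts past a limit, a single mature strand of each hairpin is shown from RefSeq, with the seed (bases 2 to 8) in capitals. miR-17-5p and miR-20a-5p share a seed, and so do miR-19a-3p and miR-19b-3p.
mmu-miR-155-5p: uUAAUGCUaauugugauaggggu
mmu-miR-33-5p: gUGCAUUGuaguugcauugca
mmu-miR-22-3p: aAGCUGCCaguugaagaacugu
mmu-miR-17-5p: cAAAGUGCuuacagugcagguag
mmu-miR-20a-5p: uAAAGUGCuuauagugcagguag
mmu-miR-18a-5p: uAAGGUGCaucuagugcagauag
mmu-miR-19a-3p: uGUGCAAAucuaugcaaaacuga
mmu-miR-19b-3p: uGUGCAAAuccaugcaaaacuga
mmu-miR-92a-3p: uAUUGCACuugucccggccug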
